A study of Mus musculus with 4 samples.

Results

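Astrocyte-enriched mRNAs were followed in cultures of mouse cortical neurons, in RNA bound by the ribosomal protein RPS2 and in total RNA. The 33 genes were matched by Ensembl identifier to GENCODE M21 symbols among the 31053 genes in the count tables. They were taken as a named list of astrocyte genes, without a threshold on any value but with earlier results of these libraries known, and they were sorted into 7 genes with secreted products, 13 with membrane products, 10 with cytosolic products and 3 with nuclear products. Of the 33 genes, 31 had enough counts to be tested.

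Enhanced crosslinking and immunoprecipitation (eCLIP) links RNA to bound protein, cuts the unprotected RNA with RNase I and sequences what an antibody recovers, and the study used IP counts over total RNA counts as a measure of translation per mRNA. Both groups were wild-type primary cortical neurons, RPS2 IP with 2 libraries (replicates 1 and 2) and total RNA with 2 libraries, the latter taken from the same samples ahead of the pulldown. Per the study's methods the cells came from embryonic cortex of C57BL/6J mice and received floxuridine in the medium, which limits the growth of dividing cells, so any astrocytes were those left after that treatment. GEO's labels give depletion of ribosomal RNA for the IP group and no treatment for total RNA, whereas the methods place that depletion after library construction and do not name the libraries. If the labels hold, an effect of that step cannot be told apart from the IP.

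Astrocytes are the glial cells that clear glutamate from synapses, buffer potassium and water, couple to one another through gap junctions and supply neurons with lipids and metabolites. In primary neuron cultures they are a minor cell type that arises from progenitors carried over from the embryonic brain. Secreted and membrane proteins are made by ribosomes at the endoplasmic reticulum, whereas most cytosolic and nuclear proteins are made on free ribosomes, and RPS2, a protein of the small subunit, is part of both.

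The IP libraries held 16460545 and 9941486 counts and the total RNA libraries 5281196 and 4899718, so values of the IP are the better counted. The gene Gm42418 alone held 42.6 and 27.9% of the counts in IP replicates 1 and 2, and 39.8 and 15.3% in total RNA replicates 1 and 2. Levels are given in CPM, counts scaled to a common library size after TMM normalisation, and levels of different genes are compared only after division by the counted exon length (CPM per kilobase). Differences are log2 ratios of IP over total RNA, either within 1 replicate number or fitted over both by edgeR's quasi-likelihood test with the replicate number as a block, with the standard error (SE) and a Benjamini-Hochberg adjusted p over 12336 genes. With the block, p-values rest on how far IP over total RNA ratios varied between the replicates, taken from a trend over all genes. They do not measure the spread in level between the replicates. Neither the labels nor the methods say whether the replicates came from separate cultures or animals, so the variation may be technical. The SE was calculated from the fitted value and the test statistic, so it follows the same trend over all genes. It does not show how far a gene's own ratios differed between the replicates.

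The list took an unequal share of RNA in the replicates. The 33 genes took 1.93% of all counts in IP replicate 1 (95% Wilson interval 1.92 to 1.94), 0.836% in IP replicate 2 (0.831 to 0.842), 1.55% in total RNA replicate 1 (1.54 to 1.56) and 0.908% in total RNA replicate 2 (0.900 to 0.916), where intervals cover counting error only. Without the counts of Gm42418 the shares were 3.37% and 1.16% in IP replicates 1 and 2, and 2.57% and 1.07% in total RNA. In replicate 2 the IP share then lay above that of total RNA, the reverse of the order over all counts. Apoe, the main lipid carrier of the brain, made up 0.821%, 0.235%, 0.680% and 0.261% of all counts, Gm42418 included, in IP replicates 1 and 2 and total RNA replicates 1 and 2. In CPM per kilobase of total RNA, Apoe ranked 2 among all genes, at 3741 in replicate 1 and 984 in replicate 2. Next among the members were Cst3 at 802 and 263 and Sparcl1 at 535 and 388, whose order differed between the replicates. At the low end were Id3 at 1.86 and 1.84 and Gjb6 at 2.41 and 0.31. The 2 genes that could not be tested were S100b, a calcium-binding protein, with 18, 7, 4 and 5 counts in IP replicates 1 and 2 and total RNA replicates 1 and 2, and Hes5, a Notch target, with 2, 3, 5 and 2 counts.

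**Figure D1:**
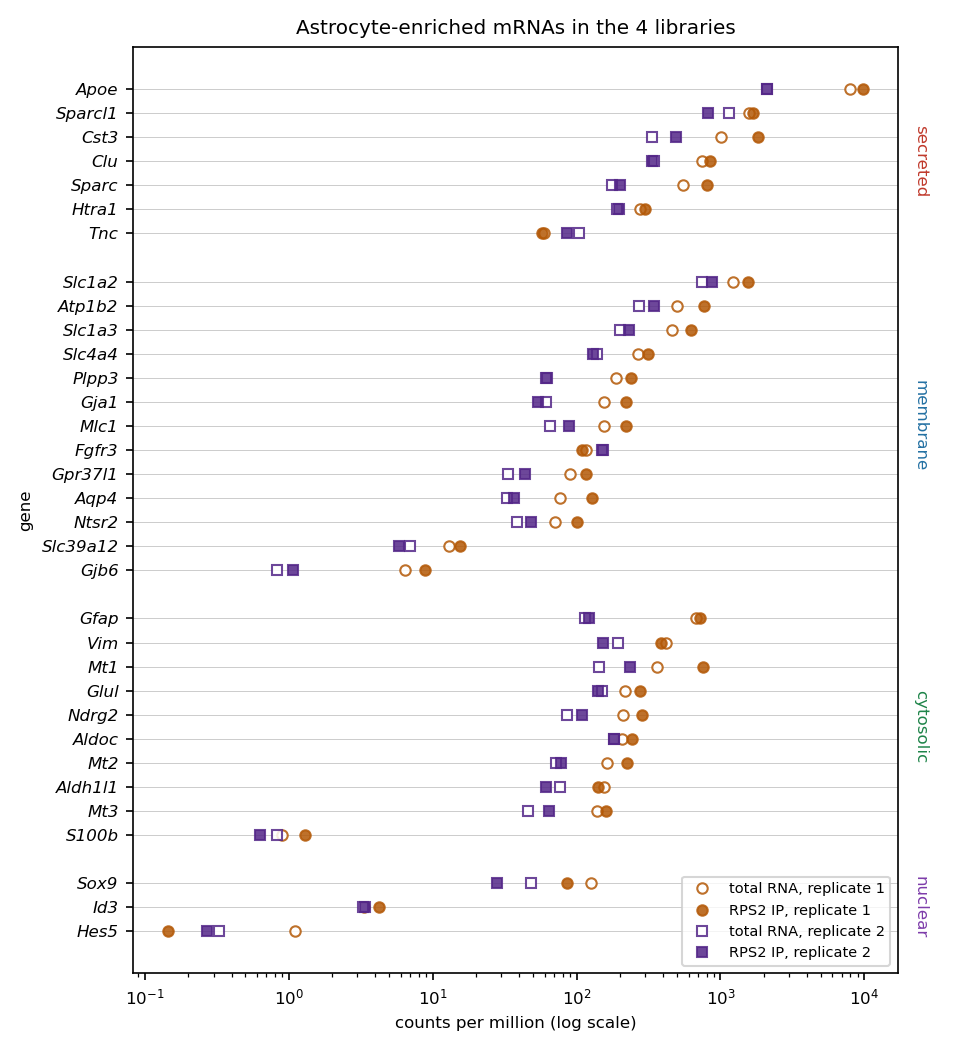
Levels in CPM on a log axis for each of the 33 astrocyte-enriched mRNAs, ordered by product class and level, with circles for replicate 1, squares for replicate 2, open symbols for total RNA and filled symbols for RPS2 IP. For most genes the 2 libraries of a replicate lie closer to each other than to the other replicate, with replicate 1 to the right, and Fgfr3 and Tnc are the genes tested that lie the other way.

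The cell type markers did not place the replicates at the same level. Gfap, the intermediate filament protein of astrocytes, stood at 725 CPM in IP replicate 1, 121 in IP replicate 2, 678 in total RNA replicate 1 and 114 in total RNA replicate 2. Slc1a3, the glutamate transporter GLAST, stood at 627, 232, 457 and 201 CPM in the same order. Aqp4, the water channel of astrocyte endfeet, stood at 128, 36.9, 76.8 and 32.9 CPM. In all 3 genes both libraries of replicate 1 lay above both of replicate 2, so IP and total RNA overlapped as groups.

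Over the 31 genes tested, 29 were higher in replicate 1 than in replicate 2 in total RNA, and 29 in the IP. The exceptions in both were Fgfr3, a fibroblast growth factor receptor also found on progenitors, and Tnc, the matrix protein tenascin C. The median ratio of replicate 1 over replicate 2 was 2.26 in total RNA and 2.53 in the IP, against 1.01 and 1.00 over all genes tested. Of all 12336 genes tested, 6275 in total RNA and 6189 in the IP were higher in replicate 1. By more than 2-fold, 19 members in total RNA and 24 in the IP were higher in replicate 1, against 1170 and 984 of all genes tested. The highest ratios in total RNA were those of the gap junction gene Gjb6 (6.38, on 29 and 5 counts), Gfap (5.95) and Apoe (3.80). Near the other end were Aldoc, the brain form of aldolase, at 1.13 and Id3 at 1.01. Summed CPM of the list were 18217 and 7313 in total RNA and 22979 and 7468 in the IP for replicates 1 and 2, a ratio of 2.49 in total RNA and 3.08 in the IP, or 1.96 and 2.46 without Apoe. These ratios compare 1 library with 1 library and have no replicate check. Fewer astrocytes in a culture and less of these mRNAs per astrocyte cannot be told apart in bulk libraries.

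**Figure D2:**
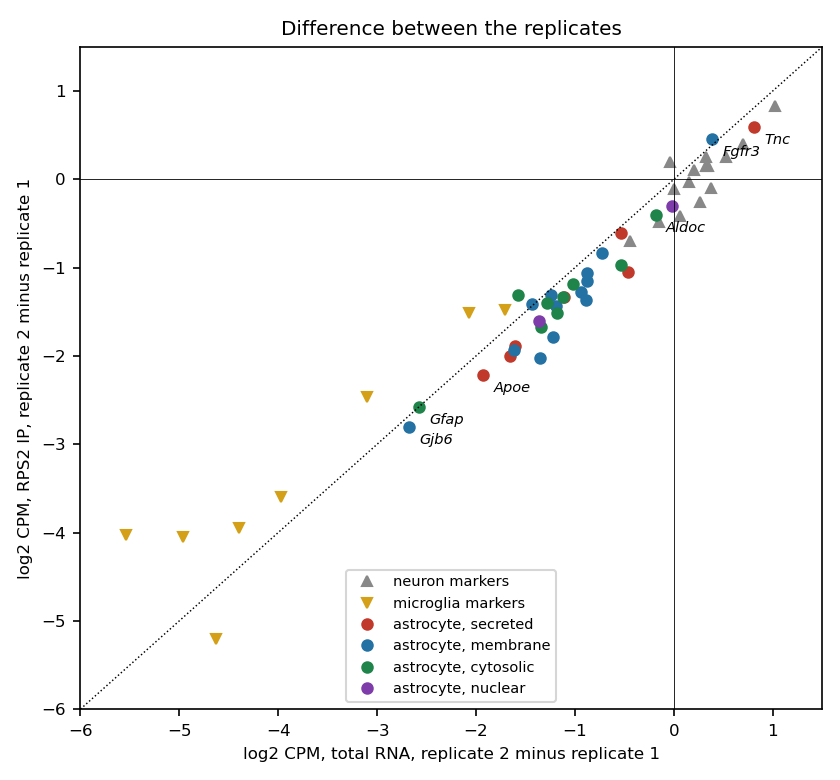
Replicate 2 minus replicate 1 in log2 CPM, in total RNA on the x axis and in RPS2 IP on the y axis, with 1 point per gene tested, circles for the astrocyte-enriched mRNAs coloured by product class and triangles for neuron and microglia markers. Most astrocyte points lie below 0 on both axes and below the dotted line of equal difference, the neuron markers lie around 0, and the microglia markers reach furthest below 0.

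Markers of other cells were compared between the replicates in the same way. The neuron list (15 genes, such as Rbfox3 and Map2) summed to 5876 and 6843 CPM in total RNA replicates 1 and 2 and to 6143 and 6149 CPM in the IP. The microglia list (12 genes) summed to 202 and 20.1 CPM in total RNA and 194 and 26.1 CPM in the IP, a ratio of replicate 1 over replicate 2 of 10.1 and 7.41. Its genes P2ry12, Tmem119, Aif1 and Itgam were at 0 counts in both libraries of replicate 2, and at 1 to 6 counts in those of replicate 1. Other genes of the list were better counted. C1qa had 516 counts in IP replicate 1 and 154 in total RNA replicate 1, against 32 and 12 in replicate 2. Cx3cr1 had 169 and 46 counts in replicate 1, against 6 and 0 in replicate 2. Apoe and Cst3 are made by microglia as well as by astrocytes, and the part of the microglia list in their difference was not tested. The endothelial and mural list (12 genes) summed to 60.3 and 19.1 CPM in total RNA and 55.5 and 13.8 in the IP, with the endothelial claudin Cldn5 at 0 in every library. The lists for the oligodendrocyte lineage and for radial glia and progenitors summed to 70.7 to 106 and 109 to 145 CPM, respectively.

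The main comparison asked whether glial mRNAs in these cultures were recovered by the RPS2 IP like other mRNAs. Of the 31 genes tested, 12 were higher in the IP, 1 was lower and 18 did not pass the test. Over all genes tested, 6.63% were higher and 7.55% lower. Since 28 of the 31 had at least 100 counts in every library, and calls depend on counts, the same shares were taken over the 5003 genes at that depth, of which 9.37% were higher and 16.6% lower, and all 13 calls of the list lay among these 28. The genes that rose were Mt1, Cst3, Atp1b2, Aqp4, Mlc1, Ntsr2, Ndrg2, Gpr37l1, Sparc, Slc1a3, Mt3 and Mt2, and the gene that fell was Sox9. The median log2 ratio of the 31 genes was 0.20, against 0.01 over all genes and -0.06 over those 5003 genes.

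**Figure D3:**
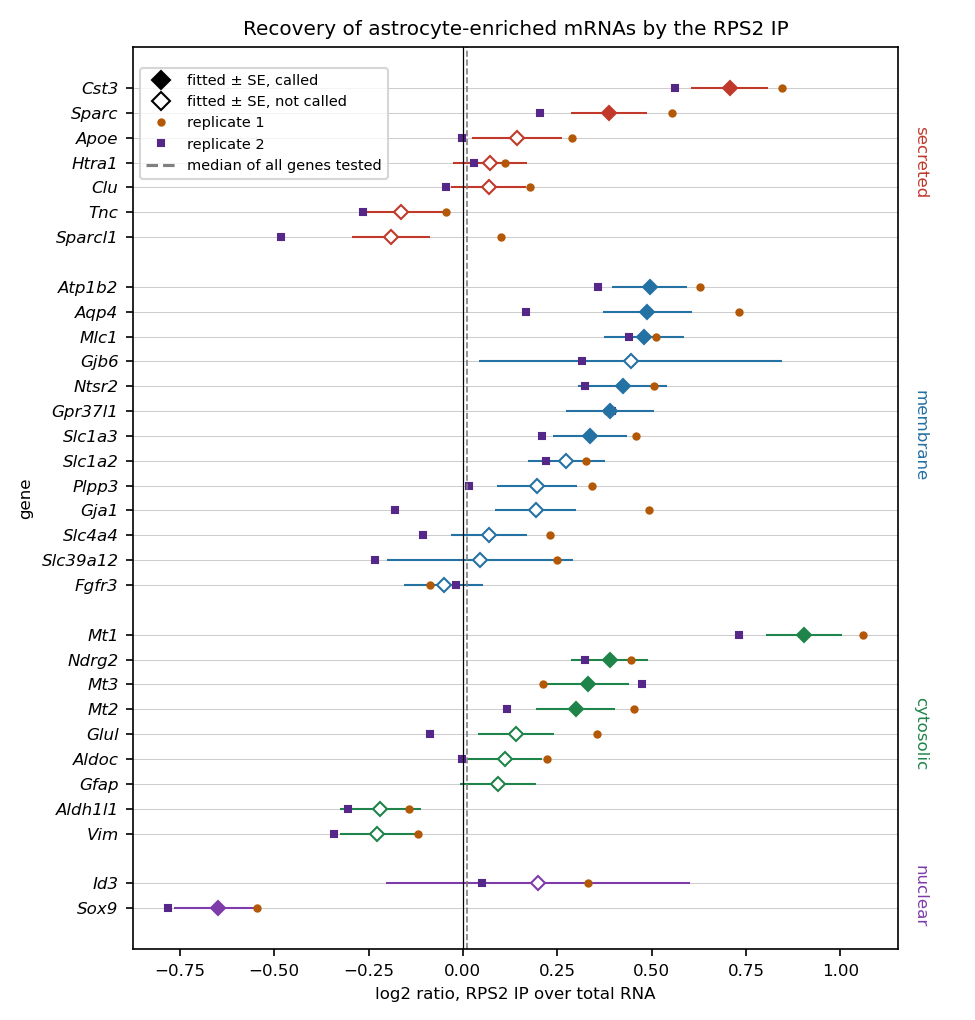
Log2 ratio of RPS2 IP over total RNA for the 31 genes tested, with diamonds for the fitted value and its standard error, filled where the adjusted p was under 0.05, circles for the ratio within replicate 1, squares for the ratio within replicate 2 and a dashed line at the median of all genes tested. Values run from -0.65 for Sox9 to 0.90 for Mt1, and circles lie to the right of squares in 28 of the 31 genes.

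The ratio was larger within replicate 1 than within replicate 2 for 28 of the 31 genes, all but Mt3, Fgfr3 and Gpr37l1, whereas this held for 6315 of the 12336 genes tested. The median of the list was 0.33 within replicate 1 and 0.05 within replicate 2, against 0.01 and 0.01 over all genes. In both replicates 18 genes lay above 0 and 5 below 0, and 8 had opposite signs. The order of the members was similar: over the 31 genes the ratios of both replicates were correlated at 0.72 (Spearman) and 0.81 (Pearson). Over all genes these were 0.40 and 0.37, although genes of a library share its depth and preparation. Of the members 28 had at least 100 counts in every library, against 5003 of all 12336 genes, so counting error differed between these sets. No correlation was taken at matched depth. Other lists varied in which replicate had the larger ratio: it was larger within replicate 1 for 14 of 15 neuron genes (medians 0.06 and -0.12), 31 of 49 further astrocyte genes (0.11 and 0.02), 18 of 24 reactive astrocyte genes (0.29 and 0.01) and 1 of 8 microglia genes (0.08 and 0.50). With 1 pair of libraries per replicate the shift has no test.

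The calls depended on the pairing and the method. Without the replicate block edgeR called 0% of all genes and 0 members, with 349 genes and 0 members at an unadjusted p under 0.05, against 16 members at that level with the block. The share of all genes at that level with the block was not counted, so the 16 cannot be set against it. With the block, DESeq2 called 5 members higher where it called 1.28% of all genes higher, and edgeR with plain library sizes called 3 members higher where it called 2.29% of all genes. A fit without 1 library has no pair for its partner: the median of the members was then -0.52 when IP replicate 1 was left out and 1.00 when total RNA replicate 1 was, with 0 members called without any 1 library.

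Secreted products. Among the 7 genes with secreted products, 2 rose, 5 did not pass the test and the median log2 ratio was 0.07, or 0.18 within replicate 1 and 0.00 within replicate 2. Over all genes tested 6.63% were higher, or 9.37% of those with at least 100 counts in every library. Cst3 (mm10 chromosome 2, 148871722 to 148875692, minus strand) encodes cystatin C, an inhibitor of cysteine proteases. It stood at 1823 and 492 CPM in IP replicates 1 and 2 and at 1015 and 333 CPM in total RNA. Each IP library exceeded the total RNA of its own replicate while the groups overlapped, and the log2 ratios were 0.84 and 0.56, with a fitted value of 0.71 (SE 0.10, a 1.63-fold difference, edgeR adjusted p = 1.4e-09). Sparc encodes a matrix glycoprotein that astrocytes release. It stood at 808 and 201 CPM in the IP and 550 and 174.9 CPM in total RNA, with ratios of 0.56 and 0.20 and a fitted value of 0.39 (SE 0.10, edgeR adjusted p = 0.0020).

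Apoe and Sparcl1 did not pass the test. Apoe stood at 9768 and 2098 CPM in the IP and at 7998 and 2103 CPM in total RNA. Replicate 1 showed a ratio of 0.29 and replicate 2 a ratio of 0.00, and the fitted value was 0.14 (SE 0.12, edgeR adjusted p = 0.49). Sparcl1 encodes hevin, a relative of SPARC that promotes synapse formation. It stood at 1686 and 814 CPM in the IP and at 1573 and 1138 CPM in total RNA. Its ratio was 0.10 in replicate 1 and -0.48 in replicate 2, the lowest fitted value of the class at -0.19 (SE 0.10, edgeR adjusted p = 0.23). Counts of Sparcl1 per count of Sparc were 2.09 and 4.04 in IP replicates 1 and 2, against 2.86 and 6.51 in total RNA, so the ratio was lower in the IP than in the total RNA of the same replicate, while the groups overlapped. Clu, the chaperone clusterin, Htra1, a serine protease, and Tnc had fitted values of 0.07, 0.07 and -0.16 and did not pass the test.

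Membrane products. The 13 genes with membrane products had the highest median of the 4 classes, 0.34 (0.45 within replicate 1 and 0.21 within replicate 2), with 6 genes higher, 0 lower and 7 not passing the test. The share called higher was 6.63% over all genes tested and 9.37% over those with at least 100 counts in every library. The highest fitted value was that of Atp1b2, the glial beta subunit of the sodium pump. It stood at 770 and 347 CPM in the IP and 498 and 271 CPM in total RNA, with ratios of 0.63 and 0.36 and a fitted value of 0.50 (SE 0.10, edgeR adjusted p = 3.0e-05). Mlc1, a membrane protein of perivascular endfeet that is mutated in a leukodystrophy, stood at 222 and 89.1 CPM in the IP and 155 and 65.6 CPM in total RNA, with ratios of 0.51 and 0.44. Its fitted value was 0.48 (SE 0.11, edgeR adjusted p = 2.0e-04). Aqp4 had levels as given above and ratios of 0.73 and 0.17, with a fitted value of 0.49 (SE 0.12, edgeR adjusted p = 8.5e-04). Of these, the ratio of Mlc1 differed least between the replicates and that of Aqp4 most.

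Receptors and transporters made up most of the other membrane genes. Ntsr2, a neurotensin receptor, stood at 100.1 and 48.0 CPM in the IP and 70.4 and 38.3 CPM in total RNA, with a fitted value of 0.42 (SE 0.12, edgeR adjusted p = 0.0045). Gpr37l1, a G protein-coupled receptor, stood at 117 and 43.7 CPM in the IP and 89.7 and 33.2 CPM in total RNA, with a fitted value of 0.39 (SE 0.12, edgeR adjusted p = 0.010) and ratios of 0.38 and 0.40 in the replicates. Slc1a3 had ratios of 0.46 and 0.21 and a fitted value of 0.34 (SE 0.10, edgeR adjusted p = 0.0084). Its partner in glutamate uptake, Slc1a2 (GLT-1), stood at 1543 and 868 CPM in the IP and 1231 and 745 CPM in total RNA. The fitted value of Slc1a2 was 0.27 (SE 0.10, edgeR adjusted p = 0.052). The count of Slc1a2 per count of Slc1a3 was 2.46 (95% counting interval 2.40 to 2.52) and 3.75 (3.59 to 3.91) in IP replicates 1 and 2, and 2.69 (2.56 to 2.83) and 3.71 (3.49 to 3.96) in total RNA, so the ratio was higher in replicate 2 in both groups. These intervals cover counting error within a library and not the spread between samples.

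The gap junction genes and the lower part of the class did not pass the test. Gja1, which encodes connexin 43, had a ratio of 0.49 in replicate 1 and -0.18 in replicate 2, the widest gap among the membrane genes that reached 100 counts in each library. Gjb6, which encodes connexin 30, had a fitted value of 0.44 with an SE of 0.40, on 123, 12, 29 and 5 counts. The bicarbonate transporter Slc4a4, the lipid phosphatase Plpp3 and the zinc transporter Slc39a12 had fitted values of 0.07, 0.20 and 0.05. Fgfr3 was the lowest of the class, at 109 and 150.3 CPM in the IP and 116 and 152 CPM in total RNA, with a fitted value of -0.05 (SE 0.10, edgeR adjusted p = 0.82).

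Cytosolic products. Of the 10 genes with cytosolic products 9 were tested, of which 4 rose, 0 fell and 5 did not pass the test, with a median of 0.14 (0.22 within replicate 1 and 0.09 within replicate 2). Among all genes tested 6.63% were called higher, and 9.37% among those with at least 100 counts in every library. The metallothioneins made up 3 of the 4 cytosolic genes that rose. They are small cysteine-rich proteins that bind zinc and copper, with Mt1 and Mt2 made in many tissues and Mt3 mainly in brain. The genes lie next to each other on the plus strand of mm10 chromosome 8, Mt3 at 94152607 to 94154146, Mt2 at 94172664 to 94173568 and Mt1 at 94179082 to 94180327. Their coding sequences are printed because they are related and a read had to lie in 1 gene alone to be counted. Sequences are the coding parts of GENCODE M21 transcripts, 5′ to 3′, in lower case, with capitals for the bases of Mt2 and Mt3 that differ from Mt1 or have no partner in it in a global alignment.
Mt1: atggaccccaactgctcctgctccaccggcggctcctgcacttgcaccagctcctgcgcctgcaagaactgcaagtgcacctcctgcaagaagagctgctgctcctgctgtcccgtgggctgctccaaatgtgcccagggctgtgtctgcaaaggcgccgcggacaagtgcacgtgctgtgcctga
Mt2: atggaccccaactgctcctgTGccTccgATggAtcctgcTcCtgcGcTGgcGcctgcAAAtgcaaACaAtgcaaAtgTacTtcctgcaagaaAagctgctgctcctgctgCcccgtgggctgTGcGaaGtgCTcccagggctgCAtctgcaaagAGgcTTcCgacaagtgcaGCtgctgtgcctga
Mt3: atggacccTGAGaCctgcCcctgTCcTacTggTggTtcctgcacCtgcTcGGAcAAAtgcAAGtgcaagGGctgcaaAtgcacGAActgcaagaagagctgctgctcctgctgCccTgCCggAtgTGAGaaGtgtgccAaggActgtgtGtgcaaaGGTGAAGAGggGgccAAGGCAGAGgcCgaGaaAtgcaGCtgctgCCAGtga
Mt2 had 148 of 186 aligned bases identical to Mt1 (79.6%) and Mt3 had 137 of 186 (73.7%), with longest shared runs of 20 and 27 bases. No stretch of at least 50 bases at 95% identity was found between any of the 3 and another annotated gene.

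Mt1 had the highest fitted value of all 31 genes. It stood at 757 and 237 CPM in IP replicates 1 and 2 and at 363 and 143 CPM in total RNA. The IP exceeded the total RNA of the same replicate by log2 ratios of 1.06 and 0.73, with a fitted value of 0.90 (SE 0.10, a 1.87-fold difference, edgeR adjusted p = 1.5e-16), with 98% of all genes tested at or below it. Mt2 stood at 223 and 78.0 CPM in the IP and 163 and 71.8 CPM in total RNA, with ratios of 0.45 and 0.12 and a fitted value of 0.30 (SE 0.11, edgeR adjusted p = 0.037). Mt3 stood at 160 and 64.3 CPM in the IP and 138 and 46.2 CPM in total RNA, with ratios of 0.21 and 0.48 and a fitted value of 0.33 (SE 0.11, edgeR adjusted p = 0.024). Thus all 3 rose, Mt1 furthest, and only in Mt3 was the ratio larger within replicate 2.

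The relative amounts of the metallothioneins compare these genes with each other and need no scaling between libraries. They do not measure the IP over total RNA ratio of any single gene. Counts of Mt1 per count of Mt2 were 3.40 (95% counting interval 3.26 to 3.54) and 3.04 (2.81 to 3.28) in IP replicates 1 and 2, and 2.23 (2.04 to 2.43) and 1.99 (1.77 to 2.23) in total RNA, so the IP and total RNA intervals did not overlap. Counts of Mt1 per count of Mt3 were 4.74 (4.53 to 4.97) and 3.68 (3.39 to 4.0) in the IP, against 2.63 (2.40 to 2.89) and 3.09 (2.70 to 3.53) in total RNA, where the replicate 2 intervals overlapped. Counts of Mt3 per count of Mt2 were 0.716 and 0.825 in the IP, against 0.847 and 0.643 in total RNA, with no common direction. The counted region of Mt1 was a single block of 1246 bases, 100% of the gene with its introns, whereas the blocks of Mt2 and Mt3 covered 65.0% and 69.2% of their genes, so the count of Mt1 can hold unspliced RNA that the other counts leave out, and the part of this difference in the ratios was not tested.

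**Figure D4:**
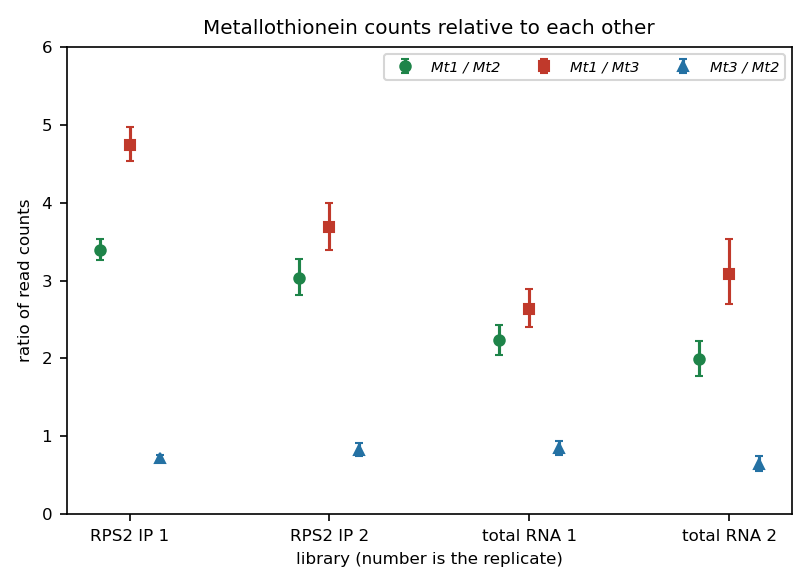
Ratio of read counts between metallothionein genes in each library, with circles for Mt1 over Mt2, squares for Mt1 over Mt3, triangles for Mt3 over Mt2 and bars for 95% counting intervals. Mt1 over Mt2 is 3.40 and 3.04 in the IP libraries and 2.23 and 1.99 in total RNA, and Mt3 over Mt2 stays below 1 in all 4 libraries.

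The other cytosolic genes held the classical markers. Ndrg2, a member of the N-myc downstream-regulated family, stood at 286 and 108 CPM in the IP and 210 and 86.5 CPM in total RNA, with ratios of 0.45 and 0.32 and a fitted value of 0.39 (SE 0.10, edgeR adjusted p = 0.0026). Gfap, whose level differed most between replicates among the members that reached 100 counts in each library, had ratios of 0.10 and 0.09 and a fitted value of 0.09 (SE 0.10, edgeR adjusted p = 0.61). Vim, the intermediate filament protein vimentin, which is also made by progenitors and vascular cells, stood at 385 and 152 CPM in the IP and 418 and 193 CPM in total RNA, with the lowest fitted value of the class at -0.23 (SE 0.10, edgeR adjusted p = 0.11). The count of Gfap per count of Vim was 1.88 and 0.796 in IP replicates 1 and 2 and 1.62 and 0.590 in total RNA, higher in both libraries of replicate 1 than in both of replicate 2. Aldh1l1, a folate enzyme, had a fitted value of -0.22, and Aldoc and the glutamine synthetase gene Glul had 0.11 and 0.14, none of which passed the test. Glul shares stretches of up to 1126 bases with annotated copies and holds the microRNA gene Mir8114 in its exons, so its counts are uncertain. Shorter stretches at 95% identity with other annotated genes, 54 to 123 bases at most, were found in Slc1a2, Slc1a3, Slc4a4, Gja1, Sparc and Aldh1l1, the last through an overlap with Gm45901.

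Nuclear products. Of the 3 genes with nuclear products, 1 fell, 1 did not pass the test and 1 was not tested. The share called lower was 7.55% over all genes tested and 16.6% over those with at least 100 counts in every library. Sox9 (mm10 chromosome 11, 112782224 to 112787760, plus strand) encodes a transcription factor that marks astrocyte nuclei. It stood at 85.9 and 28.1 CPM in the IP and 125 and 48.5 CPM in total RNA. The IP was below the total RNA of the same replicate by log2 ratios of -0.54 and -0.78, with a fitted value of -0.65 (SE 0.12, a fold of 0.64, edgeR adjusted p = 1.5e-06), with 3.13% of all genes tested at or below it. It was the only one of the 31 genes called lower. Id3, an inhibitor of basic helix-loop-helix factors, stood at 4.26 and 3.41 CPM in the IP and 3.34 and 3.29 CPM in total RNA, with both IP values above both total RNA values on 59, 38, 15 and 20 counts and a fitted value of 0.20 (SE 0.40, edgeR adjusted p = 0.81).

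A list of 50 other genes with astrocyte functions (ion and water balance, transporters, adhesion) had 49 tested, of which 10 rose, 1 fell and 38 did not pass the test, where 6.63% of all genes were higher and 7.55% lower, with a median log2 ratio of 0.14. The highest were Slc7a11, the cystine transporter, at 0.98 (SE 0.30, edgeR adjusted p = 0.013), Dio2, which activates thyroid hormone, at 0.75 (SE 0.22, edgeR adjusted p = 0.0095), and Cldn10, a claudin, at 0.73 (SE 0.26, edgeR adjusted p = 0.042). They had few counts in total RNA replicates 1 and 2, at 36 and 12, 64 and 32, and 36 and 32, respectively. Their ratios within replicates 1 and 2 were 0.66 and 1.44, 0.31 and 1.30, and 0.81 and 0.60. Of the 49 genes, 18 reached 100 counts in every library, among them 5 of the 10 that rose. The gene that fell was Ezr, the membrane linker ezrin, at -0.31 (SE 0.11, edgeR adjusted p = 0.038). A list of 31 genes of reactive astrocytes had 24 tested, of which 1 rose and 0 fell, no larger a share than over all genes, with a median of 0.14. The gene that rose was Lcn2, the iron carrier lipocalin 2, at 59.99 and 9.07 CPM in the IP and 36.3 and 8.88 CPM in total RNA, with a fitted value of 0.50 (SE 0.16, edgeR adjusted p = 0.018) and a ratio of 0.03 within replicate 2.

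Of the 15 neuron markers, 1 rose and 4 fell, with a median of -0.03. Of these markers 14 reached 100 counts in each library, a depth at which 9.37% of all genes were higher and 16.6% lower. Snap25, a SNARE of synaptic vesicle release, rose by 0.37 (SE 0.10, edgeR adjusted p = 0.0027), and Elavl4, an RNA-binding protein of neurons, fell by 0.54 (SE 0.13, edgeR adjusted p = 7.6e-04), the lowest of the list. None of the tested markers of the oligodendrocyte lineage (6 genes), microglia (8), radial glia and progenitors (7) or endothelial and mural cells (3) passed the edgeR test, or that of DESeq2 or limma-voom. At an unadjusted p under 0.05 edgeR gave 2 of the radial glia list, 1 of the endothelial list and 0 of the others, most of these genes having low counts. The share of all genes at that level was not counted, so these numbers cannot be set against it. The difference between the astrocyte and neuron lists was not tested.

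**Figure D5:**
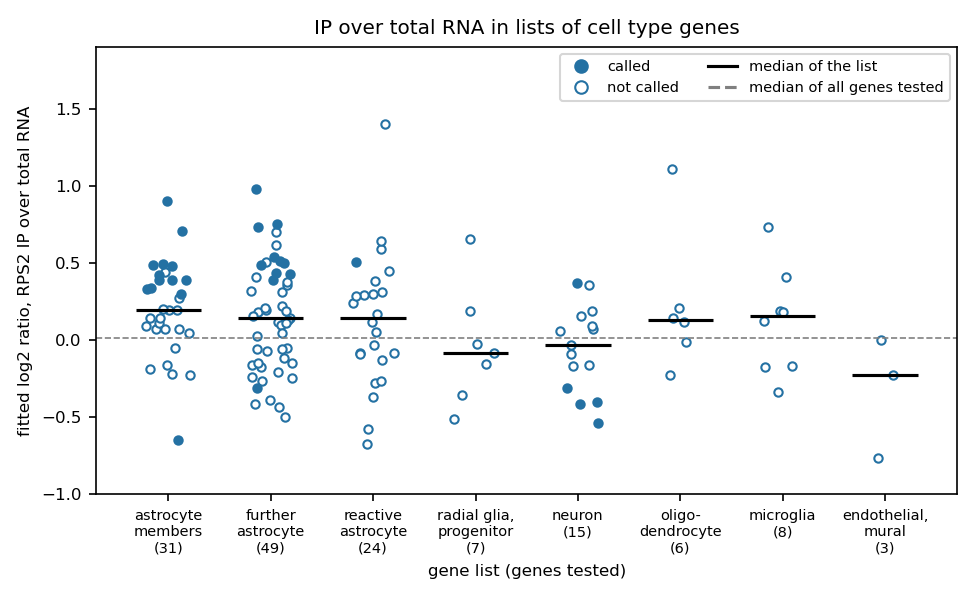
Fitted log2 ratio of RPS2 IP over total RNA for each gene tested in 8 lists of cell type genes, filled where called, with a bar at the median of each list and a dashed line at the median of all genes tested. The astrocyte-enriched mRNAs have a median of 0.20 with 12 filled points above and 1 below, and the neuron list has a median of -0.03 with 1 filled point above and 4 below.

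The 31 genes had a median exon length of 3323 bases and a median GC content of 53.2%, against 4672 bases and 50.5% over all genes tested. The Spearman correlation of the fitted log2 ratio with GC content was 0.10 over the 31 genes and -0.32 over all genes, and with exon length it was -0.38 and -0.17, given as descriptions over genes that share the same libraries.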

How the data were processed

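RPS2 IP and total RNA libraries of mouse primary cortical neurons, 2 of each, were compared. The deposited values are raw read counts per gene. Per the file headers and the study's methods, the authors trimmed reads with cutadapt, aligned them end to end to mm10 with STAR and counted them by strand with featureCounts 1.5.3, leaving out reads at several loci or in several genes. Removal of PCR duplicates was not described, so counting intervals do not cover amplification.

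Of 31053 gene identifiers, 30934 carried a GENCODE M21 symbol (same build). Counts were tested in R 4.3.3 with edgeR 4.0.16 (filterByExpr, TMM, glmQLFit and glmQLFTest, two-sided, Benjamini-Hochberg over 12336 genes, threshold 0.05), with the replicate number as a block because the study took total RNA from the same samples as the IP. Deviations from the group means correlated at 0.733 between same-numbered libraries. The fit left 1 residual degree of freedom per gene and its prior degrees of freedom were infinite, so all genes followed the fitted dispersion trend. Log2 ratios within a replicate used a prior count of 2. In simulated data for 12336 genes the fit recovered 35 of 100 genes changed 1.5-fold and 77 of 100 changed 2-fold, with 6 false calls among 118. The simulated counts had a common dispersion taken from this fit (coefficient of variation 7.93%), with equal IP and total RNA levels for unchanged genes. The simulation thus shares the assumptions of the fit and cannot show how many calls in the measured data are false. Related sequences were sought with blastn 2.17.0 and coding sequences aligned with Biopython 1.88. DESeq2 1.42.0 and limma 3.58.1 (voom) served as alternatives.

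The members, product classes and other gene lists were chosen with earlier results of these data known, the classes from general knowledge. Values in full were given for Gfap, Aqp4, Slc1a3, every member called and the highest and lowest member of each class. From other lists at most the 3 highest and 3 lowest called genes were named, and other genes were named after their values were seen. Protein sequences were not used here.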

Additional observations from a re-analysis of the deposited data

How the results depend on the processing

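The replicate block decided the calls. With no replicate block edgeR called 0 of all genes higher and 0 lower (818 and 931 with it), and 0 members, 0 further and 0 reactive astrocyte genes, while the median log2 ratio of the members was 0.27 instead of 0.20. With the block, edgeR on plain library sizes called 283 of all genes higher and 878 lower (24.4% of calls higher against 46.8%), 3 members and 4 further genes higher, and 0 further genes lower and 0 reactive genes. The median of all genes moved to -0.07 under that scaling and that of the secreted class to -0.011, with the members 0.19 above all genes in both. Library sizes without Gm42418 gave 1241 and 680 calls (64.6% higher), 5 reactive genes higher and 0 further genes lower. DESeq2 gave 158 and 382 calls, 5 members, 4 further and 0 reactive genes higher and 0 further genes lower, and left 3 members without an adjusted p. Correcting counts for GC content and exon length through an offset gave 470 and 382 calls (55.2% higher), 2 members lower (Sox9 and Sparcl1, the latter at -0.34, adjusted p = 0.035) and 0 reactive genes. With no low-count filter 0 further genes fell and the nuclear median was -0.63, with Hes5 included, and with at least 10 counts in every library 2 reactive genes rose. The cause of these shifts was not tested.

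Of the 13 members called, Mt1, Cst3, Mlc1 and Sox9 kept their call in all 8 alternatives with the block, Sparc and Atp1b2 in 7, Aqp4, Ntsr2, Gpr37l1, Ndrg2 and Mt3 in 6, Slc1a3 in 5 and Mt2 in 3. Slc1a2 passed the test in 5 of them (adjusted p from 0.0037 to 0.043). Signs turned for members that did not pass the test: plain library sizes gave Clu -0.014, Htra1 -0.011, Slc4a4 -0.015 and Slc39a12 -0.029, the offset gave Slc39a12 -0.26 and Fgfr3 0.18, and library sizes without Gm42418 gave Fgfr3 0.018.

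Leaving out 1 library removes its pair, so the block could not be fitted and the lone library was assumed to vary like the other group. All genes then gave 0 higher and 1 to 8 lower, and members, further and reactive genes gave 0 in either direction. With the values of each replicate alone included, the medians ran from -0.52 to 1.00 for the members, -0.70 to 0.77 for secreted, -0.51 to 1.10 for membrane, -0.52 to 0.79 for cytosolic and -0.79 to 0.23 for nuclear products, lowest for the members without RPS2 IP replicate 1 and highest without total RNA replicate 1, since the replicates differed in level. Log2 ratios of single genes ran over these ranges: Aldh1l1 -0.91 to 0.40, Aldoc -0.10 to 0.31, Apoe -1.27 to 1.49, Aqp4 -0.57 to 1.32, Atp1b2 -0.15 to 1.04, Clu -0.70 to 0.77, Cst3 -0.46 to 1.80, Fgfr3 -0.30 to 0.16, Gfap -1.71 to 1.89, Gja1 -1.01 to 1.17, Gjb6 -1.71 to 2.59, Glul -0.38 to 0.59, Gpr37l1 -0.49 to 1.27, Htra1 -0.26 to 0.37, Id3 0.04 to 0.36, Mlc1 -0.31 to 1.24, Mt1 -0.10 to 1.80, Mt2 -0.59 to 1.07, Mt3 -0.52 to 1.28, Ndrg2 -0.46 to 1.19, Ntsr2 -0.18 to 0.95, Plpp3 -1.01 to 1.29, Slc1a2 -0.19 to 0.69, Slc1a3 -0.51 to 1.10, Slc39a12 -0.75 to 0.64, Slc4a4 -0.65 to 0.67, Sox9 -1.63 to 0.23, Sparc -0.85 to 1.53, Sparcl1 -0.74 to 0.31, Tnc -0.53 to 0.28 and Vim -1.01 to 0.48.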
